A study of Rattus norvegicus with 2 samples.

Results

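The chemokine Cxcl12, its receptors Cxcr4 and Ackr3, the cytokine Mif and the Mif receptor Cd74 were read from RNA-seq libraries of the cardiac outflow tract (OFT) of rat embryos. These 5 genes were taken by name from a table of 37203 genes. Of them, 4 stood under their own symbol. Ackr3 was listed under its older symbol Cxcr7 and was matched by its gene number. They were selected on their counts in these same 2 libraries, whose values were already known, so their folds are a description and no test was made of them. One unnamed gene, LOC103694877, has Mif as its best match in the annotation of the table, and Mif is given alone and summed with it.

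The tissue came from Sprague-Dawley rat embryos at E13.5, when division of the single OFT into the aorta and the pulmonary artery begins. The WT library held the pooled OFTs of 10 wild-type embryos. The HO library held those of 10 Snx17-/- embryos, which carry a CRISPR/Cas9 deletion in the gene of sorting nexin 17 (SNX17), an endosomal protein that returns membrane receptors to the cell surface. HO embryos came from crosses of heterozygous F1 rats, so the deletion was not limited to the OFT. With 1 library per genotype there were no replicates, so the spread between pools was not measured, and the genotypes cannot be told apart from the pools. The column names of the deposited tables give the stage as E11_5, whereas the sample labels give E13.5, which was used here.

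CXCL12 is a secreted chemokine that directs the migration and survival of cells carrying CXCR4, a receptor that signals through inhibitory G proteins. ACKR3 binds the same ligand but recruits arrestins and takes CXCL12 up for degradation, so that it shapes the gradient that CXCR4 reads. In mice, loss of Cxcl12 or Cxcr4 leads to ventricular septal defects, and loss of Ackr3 to malformed semilunar valves. MIF is a small cytokine that binds CD74 and also CXCR4, and CD74 is better known as the invariant chain that guides MHC class II molecules through the cell.

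Total counts were 9321811 for WT and 9528615 for HO. A fold is the HO count over the WT count after TMM scaling, which sets the library sizes by a trimmed mean of log ratios. Its exact 95% interval covers counting error only. A gene is called higher or lower where the whole interval lies beyond 1.5-fold, provided that its summed count over the libraries is 20 or more, as it was for 15426 genes. By this rule 0.771% of the tested genes were called higher and 1.18% lower in HO, 1.95% in all. Of the 5 members 4 reached the minimum and 1, Mif, was called, from which nothing is read because the members were chosen on this contrast. Levels of different genes are compared as RPKM, reads scaled by gene length and library total. Snx17 itself had 1365 WT and 994 HO counts, a log2 fold of −0.47 (interval −0.59 to −0.35), and as the count covers the whole gene it does not check the deleted part. Markers of the cell types of a cardiac OFT were present. Cardiomyocyte genes summed to 20814 and 23405 CPM (counts scaled to an equal library total) in WT and HO, cushion mesenchyme genes to 3719 and 3953, smooth muscle genes to 2377 and 2490, erythroid genes to 2135 and 2171, and endothelial genes to 1231 and 1313. Neural crest and glial genes were lower in level, at 352 and 323 CPM, with Foxd3 and Tfap2b at 0 in both libraries. The epicardial list, at 292 and 190, and the leukocyte list, at 32.7 and 59.5, differed most between the libraries. Tbx18 (log2 fold −0.98, interval −1.13 to −0.83) and Tcf21 (log2 fold −0.81, interval −1.02 to −0.61) were called lower. They were 2 of 6 epicardial genes, beside 1.18% of all tested genes, and 4 of the 6 lay below 0 and 2 above. The erythroid sum rested mostly on Hbe1, with 15017 of 19900 WT and 16170 of 20687 HO counts, and 3 of its 6 genes lay above 0. Ets1 held 1514 of 3284 WT and 1536 of 3079 HO counts of the neural crest list. That list had 6 tested genes, of which 5 lay below 0 and 1 above, with a median log2 fold of −0.30, and none was called. The cushion and smooth muscle sums each rested on 1 abundant gene. Without Vcan the cushion genes had 14518 WT and 12764 HO counts, and without Acta2 the smooth muscle genes had 13240 and 12369. In each of these lists 5 of 8 genes lay below 0, with medians of −0.11 and −0.09, and Mylk, a myosin light chain kinase, was called lower (log2 fold −1.34). In pooled tissue, fewer cells of a type and less RNA per cell cannot be told apart.

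Promoter sequence is shown for 3 of the genes, namely Cxcr4 and Ackr3, the receptors whose order of level was not the same in both libraries, and Mif, which had the largest fold of the members. Each run gives the 250 bases before the RefSeq start on build GRCr8, written 5′ to 3′. Capitals mark matches to the core of the hypoxia response element (ACGTG) or to the TATA box (TATAAA), both searched on both strands.

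Cxcr4: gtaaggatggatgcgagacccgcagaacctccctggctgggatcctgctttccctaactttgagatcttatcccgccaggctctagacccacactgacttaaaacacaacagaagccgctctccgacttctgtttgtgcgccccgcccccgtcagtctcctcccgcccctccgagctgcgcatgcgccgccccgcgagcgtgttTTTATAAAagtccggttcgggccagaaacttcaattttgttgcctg

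Ackr3: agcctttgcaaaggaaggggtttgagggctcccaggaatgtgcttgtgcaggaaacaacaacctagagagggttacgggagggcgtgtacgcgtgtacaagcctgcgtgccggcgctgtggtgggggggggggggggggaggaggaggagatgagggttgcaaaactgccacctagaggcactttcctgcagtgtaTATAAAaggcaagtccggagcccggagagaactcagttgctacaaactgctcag

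Mif: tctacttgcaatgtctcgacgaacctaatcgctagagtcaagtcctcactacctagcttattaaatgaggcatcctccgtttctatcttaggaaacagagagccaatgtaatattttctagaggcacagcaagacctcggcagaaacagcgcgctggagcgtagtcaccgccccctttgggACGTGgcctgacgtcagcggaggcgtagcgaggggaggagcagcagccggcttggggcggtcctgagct

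The Cxcr4 window lies at chr13:42634289-42634538, minus strand, that of Ackr3 at chr9:98247104-98247353, plus strand and that of Mif at chr20:12790107-12790356, plus strand. Cxcr4 holds TATAAA 44 bases before its start, overlapping a match on the other strand, and Ackr3 holds it 54 bases before its start. Mif holds no TATAAA but 1 ACGTG, beginning 69 bases before its start. The window of Cd74 also holds ACGTG, 67 bases before its start, and no TATAAA. The window of Cxcl12 holds neither motif. Of the 33469 windows of this length in the table, 12.9% hold TATAAA and 16.6% hold ACGTG. These matches are a description of the letters. All 5 genes had an entry, and LOC103694877 was not matched to the table.

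Cxcl12 was the most abundant chemokine ligand of the OFT in both libraries. It had 4229 WT and 3579 HO counts, or 83.7 and 69.3 RPKM. The HO level was 0.837-fold the WT level (interval 0.801 to 0.876), a log2 fold of −0.26 (interval −0.32 to −0.19). The interval lay below 1 but within 1.5-fold, so the gene was not called. By level it ranked 881 in WT and 1169 in HO among all genes of the table. Cxcl12 held 78.3% of the summed RPKM of 34 chemokine ligand genes in WT and 67.9% in HO. This share has no interval, and part of its difference lies in a sparse ligand gene, Pf4. Its level was 7.76 RPKM on 23 counts in WT and 17.2 RPKM on 52 counts in HO, and it was not called. By reads its share was 92.6% in WT (exact interval 91.8 to 93.3) and 90.8% in HO (89.9 to 91.7).

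The receptor Cxcr4 had 260 WT and 336 HO counts, or 16.3 and 20.6 RPKM. This is a fold of 1.28 (interval 1.08 to 1.51), a log2 fold of 0.35 (interval 0.12 to 0.59). The interval lay above 1 but reached below 1.5-fold, so Cxcr4 was not called. The scavenging receptor Ackr3 had 922 WT and 853 HO counts, or 18.8 and 17.0 RPKM. Its log2 fold was −0.13 (interval −0.26 to 0.01), so a difference between the libraries was not detectable at this depth. The upper bound was −0.01 with total counts and −0.04 with upper-quartile factors, and this reading therefore depends on the scaling. None of these 3 genes of the Cxcl12 axis was called in either direction.

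**Figure D1:**
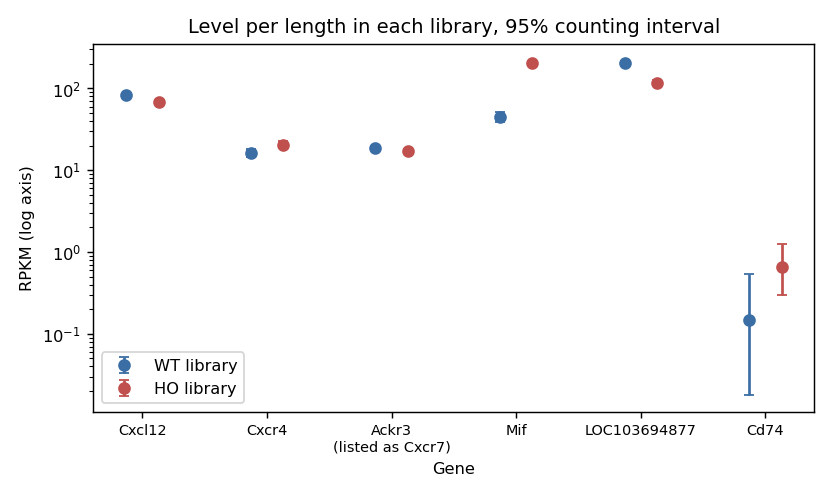
Level of each gene in RPKM on a log axis in the WT (blue) and HO (red) library, 1 point per library, with bars for the exact Poisson 95% interval of the count (most are smaller than the point). Mif lies at 44.9 in WT and 206 in HO while LOC103694877 lies at 207 and 118, and Cd74 lies below 1 in both libraries.

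Per length, the order of the 2 receptors differed between the libraries. This order rests on gene lengths recovered from the RPKM, 5265 bases for Ackr3 and 1708 for Cxcr4. In reads, Ackr3 stood above Cxcr4 in both libraries, with count ratios of 3.55 in WT and 2.54 in HO. In WT, Ackr3 at 18.8 RPKM (lower Poisson bound 17.6) stood above Cxcr4 at 16.3 (upper bound 18.4), and these intervals overlapped. In HO, Cxcr4 at 20.6 (interval 18.5 to 23.0) stood above Ackr3 at 17.0 (interval 15.9 to 18.2), and the intervals did not overlap. The ratio of Ackr3 to Cxcr4 RPKM was 1.15 in WT and 0.824 in HO. Such a ratio needs no scaling of the libraries. It was 0.716-fold as high in HO as in WT (conditional exact interval 0.591 to 0.867), a log2 difference of −0.48. The ratio of ligand to signalling receptor, Cxcl12 to Cxcr4, was 5.12 in WT and 3.35 in HO by RPKM, a log2 difference of −0.61 (interval −0.86 to −0.36). Both ratios were lower in the HO library than in the WT library, with intervals that cover counting error only. They use the same Cxcr4 counts, so they are not 2 separate results, and the genes were chosen on this contrast.

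Cxcr4 and Ackr3 together held 75.2% of the summed RPKM of 22 chemokine receptor genes in WT and 76.3% in HO. Of the other 20 receptors, 10 had no read in either library and 5 reached 20 counts, and none of these was called. Their median log2 fold was 0.09, beside 0.01 over all tested genes. The 2 with most reads were Ackr4, another scavenging receptor, with 127 and 137 counts, and Ccrl2, an atypical receptor, with 45 and 47. Cxcr2, a receptor that MIF also binds, had no read. The other chemokine ligands were sparse as well. Of 33, 13 had no read in either library and 3 reached 20 counts, with a median log2 fold of −0.01 that was 0.01 with DESeq2 size factors. Cx3cl1, a membrane-bound chemokine, had 211 and 212 counts, and Ccl27 had 68 and 52. The third was Pf4, a chemokine of platelets and megakaryocytes, which was named after its values were seen. It had 23 WT and 52 HO counts (log2 fold 1.16, interval 0.43 to 1.94), and its interval reached below 1.5-fold.

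Most genes that act downstream of the 2 receptors reached 20 counts, and none was called. Of 24 G proteins, receptor kinases, arrestins and effectors, 22 reached 20 counts, 14 of these lay above 0 and 8 below (11 above 0 with upper-quartile factors), and the median log2 fold was 0.05. Gnai2, an inhibitory G protein alpha subunit, had 5043 counts in WT and 4795 in HO. Gnb2, a beta subunit, had 3791 and 3277. These are the 2 with most reads, and both lay below 0, unlike most of the list. Of 13 proteases and heparan sulphate proteoglycans that cleave or hold CXCL12, 10 reached 20 counts, with a median log2 fold of −0.25. Of these, 7 lay below 0 and 3 above, beside 51.4% of all tested genes above 0. Gpc3, a glypican, had 8413 and 7315 counts (log2 fold −0.22, interval −0.26 to −0.17). Mmp2, a protease that cleaves CXCL12, had 6220 and 5014 (log2 fold −0.33, interval −0.38 to −0.27). Both intervals lay below 0 and within 1.5-fold, as that of Cxcl12 did. The largest fold of the list went the other way, that of Dpp4, with 20 and 40 counts (log2 fold 0.98, interval 0.18 to 1.84).

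Adrenomedullin is a second ligand of ACKR3, which removes it as it removes CXCL12. All 6 genes of adrenomedullin and its receptors reached 20 counts and none was called, with a median log2 fold of 0.34. Of them 4 lay above 0, beside 51.4% of all tested genes. The 2 below 0 were the ligand genes. Adm had 58 WT and 57 HO counts (log2 fold −0.04), and Adm2 had 19 and 13 (log2 fold −0.56, interval −1.70 to 0.53). Ramp2, a receptor subunit of endothelial cells, had 744 WT and 992 HO counts (log2 fold 0.40, interval 0.26 to 0.54). Calcrl, its partner, had 139 and 195 (log2 fold 0.47, interval 0.15 to 0.80). The endothelial list, whose genes are expressed in the same cells, had a median log2 fold of 0.14, and its part in these values was not tested.

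Mif was called higher in the HO library, and LOC103694877 was called lower. Mif had 231 WT and 1084 HO counts, or 44.9 and 206 RPKM, a fold of 4.64 (interval 4.03 to 5.38). LOC103694877 had 1381 WT and 805 HO counts, or 207 and 118 RPKM, a fold of 0.577 (interval 0.528 to 0.630). The 2 genes therefore differed between the libraries in opposite directions, and LOC103694877 in WT and Mif in HO stood at nearly the same level. The table describes both as macrophage migration inhibitory factor, with recovered lengths of 552 bases for Mif and 716 for LOC103694877. Of the reads at the pair, 14.3% lay at Mif in WT (exact interval 12.7 to 16.1) and 57.4% in HO (55.1 to 59.6). Summed, the pair had 1612 and 1889 counts, a fold of 1.16 (interval 1.08 to 1.24), which was not called. How the counting divided reads between the genes is not given in the sources used here, so the values of each gene alone are uncertain.

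**Figure D2:**
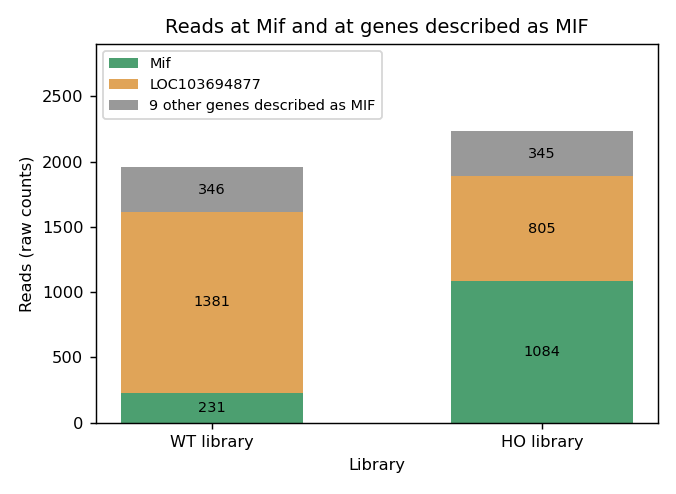
Raw counts in the WT and HO library at Mif (green), LOC103694877 (orange) and the 9 other genes described as MIF (grey), stacked. Mif had 231 and 1084 counts and LOC103694877 had 1381 and 805, while the 9 others had 346 and 345.

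A further 9 genes of the table are described as MIF or similar to it, all as non-coding RNA. Of these, 4 had no read in either library. The other 5 had between 4 and 205 counts in a library, and none was called. LOC102553854, which RefSeq now names Mif-ps5, had 173 counts in WT and 205 in HO. LOC679748, now Mifl2, had 86 and 75, and LOC688577, now Mif-ps9, had 69 and 49. Together the 9 genes had 346 counts in WT and 345 in HO. With them the 11 genes had a log2 fold of 0.18 (interval 0.09 to 0.26), beside 0.21 (interval 0.12 to 0.31) for the pair. This wider sum was added after the data were seen.

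Opposite calls at a gene and its copy were also seen elsewhere in the table. An unnamed copy with the same best match was found for 567 named genes, with at least 20 counts on each side. Of these genes 37 were called, and in 30 of the 37 the sum with the copies was not. In 14 (2.47% of the 567), Mif included, gene and copies were called in opposite directions, and in none of the 14 was the sum called. Romo1, Timm17b, Rps6 and Hnrnpab were among them, named after their values were seen.

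**Figure D3:**
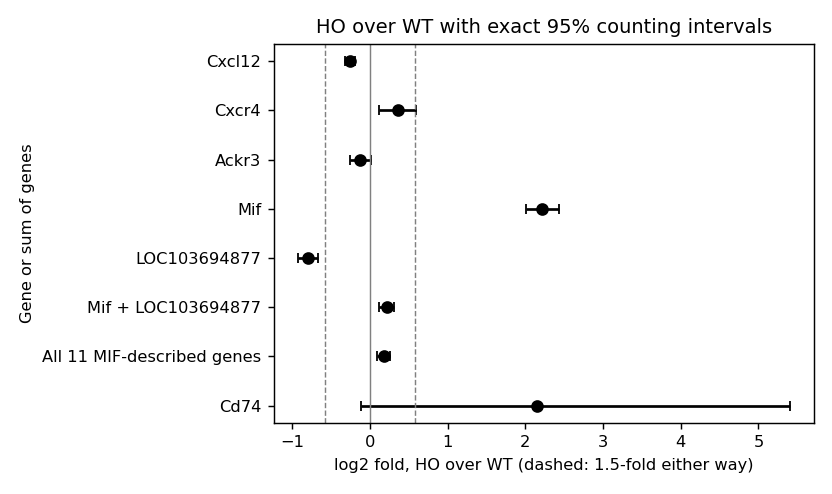
Log2 fold of HO over WT for each gene and for sums of Mif genes, with exact 95% counting intervals and dashed lines at 1.5-fold either way. Mif alone lies at 2.22 and LOC103694877 at −0.79, while their sum lies at 0.21 and the interval of Cd74 includes 0.

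Of 6 genes of the MIF family, its co-receptors and binding partners, 5 reached 20 counts, 4 of these lay above 0 and none was called, with a median log2 fold of 0.15. Src, a kinase downstream of the CD74 and CD44 complex, had 1670 WT and 1421 HO counts (log2 fold −0.25, interval −0.35 to −0.15). Cops5, a signalosome subunit that binds MIF in the cell, had 598 and 829 (log2 fold 0.46, interval 0.30 to 0.61). These intervals lay on opposite sides of 0.

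Cd74 was close to undetected. It had 2 counts in WT (Poisson interval 0.24 to 7.22) and 9 in HO (interval 4.12 to 17.1), or 0.148 and 0.652 RPKM. The ratio of 4.45 had an interval from 0.92 to 42.4, so a difference was not detectable at this depth (centred by abundance, the lower log2 bound was 0.07). With 11 counts in all, the gene was not among those tested. The genes of its known complex were sparse too. Of 8 MHC class II genes, RT1-Ba and RT1-Da had no read in either library, and the 8 summed to 20 counts in WT and 27 in HO. Over the whole list of 17 MHC class II and antigen processing genes, 9 reached 20 counts and none was called, with a median log2 fold of 0.06. The 2 with most reads were Ctsl, a lysosomal protease that acts on the invariant chain, with 2034 and 2429 counts, and Lgmn, another lysosomal protease, with 748 and 727.

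Leukocyte markers lay in the same direction as Cd74. Of 19 macrophage and other leukocyte genes, 14 had more counts in HO, 2 had fewer and 3 were equal, and the list summed to 305 WT and 567 HO counts (0.88 on the log2 scale, interval 0.68 to 1.08). Of the 11 with at least 20 counts, 10 lay above 0, beside 51.4% of all tested genes, and 2 were called, both higher, beside 0.771% of all tested genes. Csf1r, the macrophage growth factor receptor, had 47 WT and 130 HO counts (log2 fold 1.45, interval 0.96 to 1.97), and C1qc, a complement subunit of macrophages, had 28 and 67 (log2 fold 1.24, interval 0.59 to 1.93). Spi1, a transcription factor of macrophages, went the other way with 13 counts in WT and 1 in HO, and Cd163 had no read in either library. Relative to the summed markers, the log2 difference of Cd74 was 1.28 (interval −1.01 to 4.53). The part of leukocytes in the Cd74 values was not tested.

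**Figure D4:**
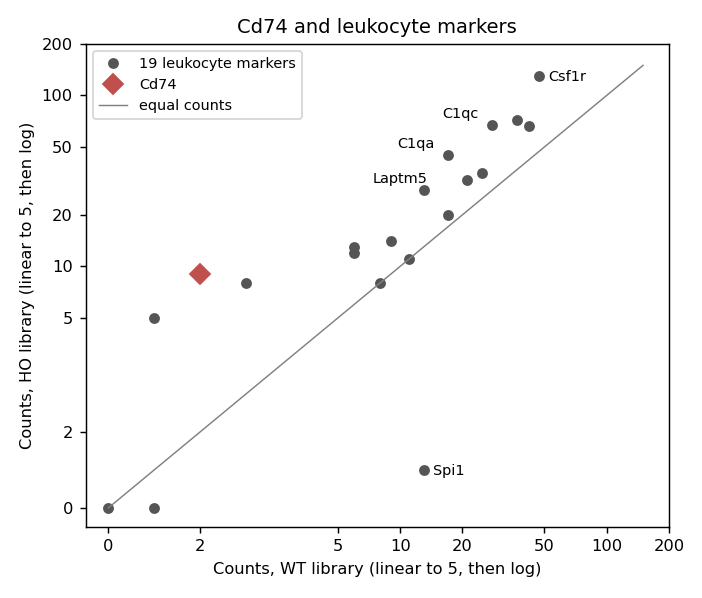
Counts in the WT library (x axis) and the HO library (y axis) of 19 leukocyte markers (grey) and Cd74 (red), on axes that are linear to 5 and logarithmic above, with a line at equal counts. Of the 19 markers, 14 lie above the line, and Cd74 lies at 2 and 9.

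Hypoxia is known to raise the transcription of Cxcr4, Cxcl12 and Mif in other tissues. All 19 hypoxia targets had at least 20 counts. Of them, 15 lay above 0 in the HO library (14 with upper-quartile factors), beside 51.4% of all tested genes. None was called, and the median log2 fold was 0.28. Aldoa and Pgk1, enzymes of glycolysis, had 13638 and 15695 counts and 7060 and 9384 counts. Their log2 folds were 0.19 and 0.40. Hif3a, 1 of the 4 below 0, had 281 WT and 176 HO counts (log2 fold −0.69, interval −0.97 to −0.41). The part of hypoxia in the values of the members was not tested. Across the 8 partner lists 0 of the 79 tested genes were called, beside 1.95% of all tested genes, and at this number of genes such a count is near that share.

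**Figure D5:**
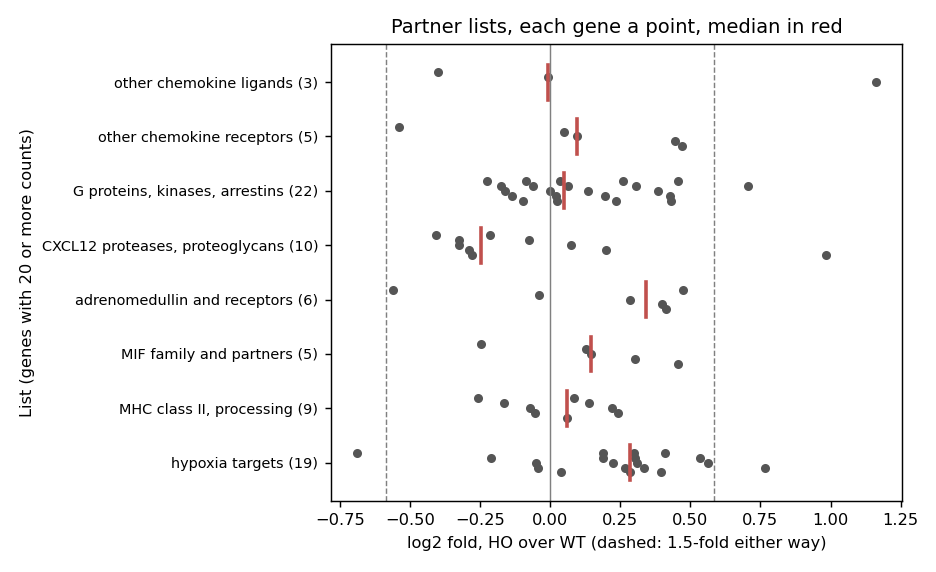
Log2 fold of HO over WT for each gene with at least 20 counts in the 8 partner lists (points), the list median (red) and dashed lines at 1.5-fold either way. The medians lie between −0.25 for the CXCL12 proteases and proteoglycans and 0.34 for adrenomedullin and its receptors.

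The genes nearest to each member were sought by distance on the log2(RPKM + 1) scale over the 2 libraries. The search covered 12171 named mRNA genes with at least 20 summed counts. Such likeness over 2 points describes level and fold only. Nearest to Cxcl12 were Arhgef40 and Ctdsp2, at distances of 0.02 and 0.04. Those of Cxcr4 were Dcaf13 and Fundc2, both at 0.00445. Ehd2 lay near Ackr3, at 0.0149. Nearest to Cd74 were Gabrr2 and Cpa4, at 0.05 and 0.06, but Cd74 itself, with 11 counts, was below the minimum of that search. Mif alone stood apart, as its nearest genes, Dstn and Hapln1, lay at distances of 1.03 and 1.04. The summed pair had close neighbours again, namely Atp5h at 0.03 and Hspa5 at 0.04, with 256 and 321 RPKM for Atp5h and 252 and 324 for the pair.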

How the data were processed

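Total RNA of pooled OFTs from 10 WT and 10 HO embryos was made into 1 library each and sequenced as single-end reads. The authors cleaned the reads of adaptors and poor bases, mapped them with MapSplice to Rnor 6.0 and deposited raw counts per gene. How reads were counted, on which annotation and whether by strand is not given in the sources used here, so a gene and an antisense partner cannot be told apart. The deposited RPKM values of the authors were the same counts divided by gene length and library total. The authors called genes with EBSeq, which was not run here.

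Scaling used TMM in edgeR 4.0.16 (R 4.3.3). Size factors of DESeq2 1.42.0 and the exact test of edgeR at an assumed coefficient of variation served as alternatives only. Clopper-Pearson, Poisson and conditional odds ratio intervals were computed with scipy 1.17.1, lowess curves with statsmodels 0.14.6, tables with pandas 2.3.3 and numpy 2.4.6 and figures with matplotlib 3.10.9, all under Python 3.11.15. The counting rule was run on simulated counts that held counting error only. Such a run cannot show how the rule behaves with a spread between pools. PCR reads are not independent molecules, so intervals cover counting error only, and no p-value is given.

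The 5 members, 8 partner lists and 8 marker lists were chosen with earlier results of these data known. Named genes are the members and the copy of Mif, up to 4 called genes of each list or else the 2 with most reads, and the 2 nearest genes of each member, of which 1 is not reported here. Pf4, Spi1, Vcan, Acta2, Hif3a, Dpp4, Adm and Adm2 were chosen after their values were seen. So were genes named at 0 counts and the examples of gene and copy. Older symbols were matched through RefSeq (GRCr8), from which promoter sequences also came.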

Additional observations from a re-analysis of the deposited data

How the results depend on the processing

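The folds of the 5 genes, of the summed Mif pair and of the 3 ratios kept their direction, and the calls of the genes did not differ, under every alternative run, which were, where they applied, 3 other library scalings, the RPKM ratio, centring by abundance or gene length, 99% intervals, a 2-fold threshold and, for Cd74, a list of 3 leukocyte markers. Mif ranged from 2.16 to 2.23 on the log2 scale, the pair from 0.14 to 0.23, Cxcl12 from −0.30 to −0.23, Cxcr4 from 0.30 to 0.37 and Ackr3 from −0.17 to −0.10. The interval of Ackr3 lay below 0 with upper-quartile factors, the RPKM ratio, total counts and centring by abundance, and included 0 otherwise. That of Cd74 lay above 0 only when centred by abundance. The RPKM ratio divides by library totals and so repeats the total counts setting. The 99% intervals and the 2-fold threshold leave each fold unchanged, so they bear on intervals and calls only.

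The counts of called genes depended on the rule. The 119 higher and 182 lower genes became 75 and 110 with at least 100 counts, 73 and 117 with 99% intervals, 42 and 57 with a 2-fold threshold, and 15 and 13 in the exact test of edgeR at an assumed coefficient of variation of 0.2. With copies joined to the gene they match, 77 were higher and 135 lower. No paired analysis was possible because there was 1 library per genotype. That single library per genotype also limits every value here, and for Cd74 and the MHC class II genes depth is the limit.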
